A study of Mus musculus with 12 samples.

Results

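Protein-coding genes that span at least 600 kb of the mouse genome, counted as annotated end minus start, were described in the hypothalamus of WT and Gpr75-/- mice. Genes whose symbols start with Gri, Gabr, Kcn, Cacn or Scn (many of them receptor and ion channel subunits) and Plcb1 were left out by the same rule, which removed 10 genes of this length on each diet. The rule found 131 genes among 16855 in the chow table and 132 among 16744 in the high-fat diet (HFD) table. The same 131 were in both, and Lrmda was in the HFD table only. The rule used the annotation and no expression value.

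RNA-Seq covered 12 age-matched male mice, 3 in each of 4 groups: WT (+/+) and Gpr75-/- mice were kept on chow, and further mice of either genotype received a HFD for 2 weeks from 6 weeks of age. All were on the C57BL/6J background, and the Gpr75-/- mice carried a CRISPR/Cas9 null allele of Gpr75, the gene of a G protein-coupled receptor found in neuronal primary cilia. The comparison asks how the hypothalamic transcriptome differs with the loss of GPR75 under each diet. The values used are the authors' mean of each group, read as a log2 scale of CPM, the counts of a gene scaled to the size of its library. The spread between mice is not part of these values, so no difference below carries an error or a test over mice, and none can be said to exceed the variation between animals.

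Very long genes consist almost entirely of introns, and an RNA polymerase needs many hours to cross them. In the brain they are known above all as genes of neurons, where many encode adhesion molecules, synaptic scaffolds and regulators of splicing. Several coincide with common fragile sites, regions prone to breakage when replication and transcription of the same long stretch collide.

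The genes spanned from 602 kb (Mast4) to 2961 kb (Fgfr2), with a median of 924 kb among the 128 that had a mean normalised count of at least 50 on both diets, and 55 of the 132 reached 1 Mb. Introns made up a median of 99.3% of the span and never less than 96.5%. The longest coding mRNA of these 128 genes, in the GENCODE M21 annotation, had a median of 6072 bases and 17 exons, beside 3339 bases and 9 exons in 12573 shorter protein-coding genes with a transcript there. The GC content of the mRNA was 45.4% and 50.1%. The deposited span of Fgfr2, the receptor of fibroblast growth factors, is 2961 kb, whereas RefSeq gives 104 kb. RefSeq also has Fars2 at 420 kb, Ank3 at 494 kb, Cdk14 at 577 kb and 5730522E02Rik at 594 kb, and the other 127 genes at 600 kb or more.

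Long loci often have several promoters, and a value per gene adds up their transcripts. RefSeq start windows, mostly the bases just before a transcript start, were found for 108 of the very long genes, and 42 of them had at least 2. Among genes past the filter on chow that had a window, at least 2 were found in 38.5% of 104 very long and 21.04% of 10028 shorter protein-coding genes. The outermost windows lay at least 100 kb apart in 28 genes, and up to 2184 kb apart in Cntnap2. Nrxn3 is shown because its transcripts are known in long and short forms and its value was among those lower in Gpr75-/- mice on chow: its 3 windows lie 1018 kb from first to last on the plus strand of chromosome 12 (GRCm38.p6), at chr12:88794254-88794553, chr12:88953140-88953439 and chr12:89812233-89812532. Capitals mark each CG pair, the dinucleotide that DNA methylation targets, which reads the same on both strands.

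Nrxn3 first window: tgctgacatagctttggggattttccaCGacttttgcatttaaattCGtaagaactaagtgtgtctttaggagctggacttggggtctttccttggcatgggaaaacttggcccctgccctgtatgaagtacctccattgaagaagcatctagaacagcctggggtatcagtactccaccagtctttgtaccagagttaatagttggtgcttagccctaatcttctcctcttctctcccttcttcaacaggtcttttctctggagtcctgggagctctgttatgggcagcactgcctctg

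Nrxn3 middle window: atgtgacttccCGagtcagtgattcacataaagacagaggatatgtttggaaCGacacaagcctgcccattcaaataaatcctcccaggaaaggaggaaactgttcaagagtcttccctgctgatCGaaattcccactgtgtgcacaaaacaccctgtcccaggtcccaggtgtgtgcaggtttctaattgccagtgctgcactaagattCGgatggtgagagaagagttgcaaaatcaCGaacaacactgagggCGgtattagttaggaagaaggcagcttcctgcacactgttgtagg

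Nrxn3 last window: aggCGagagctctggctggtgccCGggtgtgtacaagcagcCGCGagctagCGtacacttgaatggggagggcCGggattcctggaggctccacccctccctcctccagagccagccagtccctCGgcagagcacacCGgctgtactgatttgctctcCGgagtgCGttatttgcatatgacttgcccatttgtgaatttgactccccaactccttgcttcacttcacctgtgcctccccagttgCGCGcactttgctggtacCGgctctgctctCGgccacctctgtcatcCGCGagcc

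The first window held 2 CG pairs, the middle one 6 and the last 16. At least 1 was found in 99.5% of 13127 windows of protein-coding genes expressed on chow and in 97.6% of 169 windows of the very long genes, with a median of 20 and 12 pairs a window. The Nrxn3 values below do not say which of these starts was used.

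The mean normalised counts summed to 18280462 over the genes of the chow table and 19420111 over those of the HFD table, and the very long genes held 1.13% and 1.07% of them. All 12 hypothalamic peptide and transcription factor markers, among them Pomc, Agrp and Hcrt, were measured on both diets. Gpr75 stood at 4.06 in WT and 4.62 in Gpr75-/- mice on chow (mean log2 CPM), and at 4.31 and 4.21 on the HFD. The allele ends the reading frame early and can still be transcribed, so this mRNA does not check the genotype labels. Marker lists were set beside these values as the difference of mean log2 CPM, Gpr75-/- minus WT. The 10 oligodendrocyte markers averaged -0.24 on chow and -0.26 on the HFD, the 5 oligodendrocyte precursor markers -0.049 and -0.15, the 4 endothelial markers -0.077 and -0.088, and the 5 microglia markers, which went both ways, -0.025 and -0.024. The choroid plexus markers averaged 0.90 on chow, with 8 of 8 higher, and -0.33 on the HFD, where 5 were measured with 3 lower and 2 higher and Ttr (-1.41) lay farthest below WT. On chow Ttr had a mean count of 2910 but stood at only 2.48 in WT and 3.69 in Gpr75-/- mice. Ctnna2, with a mean count of 2906, stood at 7.34 and 7.28. Such a gap arises when counts are uneven over mice, and which mice held most of the Ttr reads is not known. The 12 hypothalamic markers averaged 0.0021 on chow, with 6 lower and 6 higher, and 0.29 on the HFD, with 12 of 12 higher. Neuron markers, the 10 genes that include Snap25 and Rbfox3, averaged -0.015 and -0.027. None of these markers was at the lower limit in both groups of a diet. The filter on the mean count was not applied to the markers. Folr1 (48.2) and Kcnj13 (38.4) on chow and Ttr (48.5) and Agrp (49.9) on the HFD were under 50. In whole tissue, fewer cells of a type and less RNA per cell cannot be told apart.

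On chow, the very long genes were on average slightly lower in Gpr75-/- than in WT mice. The mean difference over 128 genes with a mean count of at least 50 was -0.046, or -3.12%, and the median -0.051. Of these genes 76 were lower, 37 higher and 15 equal at the printed precision, which is 59.4% lower, beside 40.4% of all 14240 genes past the same filter. The share that was higher was 28.9%, beside 43.3% of all genes. A difference of at least 0.1 on the log2 scale, 6.70% on the lower side, was used to count larger ones: 41 very long genes (32.0%) were lower by this much, beside 18.6% of all genes, and 12 (9.38%) were higher, beside 19.3%. Since the group means were printed with 2 decimals, a difference is known only to within 0.018 to 0.070, with a median of 0.047 over these genes.

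Over 12607 shorter protein-coding genes the mean was 0.0018. Shorter genes of like level, taken from 10 classes of mean count and weighted by the very long genes in each class, had a mean of 0.0015, so that the very long genes stood -0.047 from them. Of those matched genes 15.7% were lower by at least 0.1. Matched on mean count and mRNA length together, shorter genes averaged -0.025, with 25.1% lower by at least 0.1, which left a distance of -0.021. Genes of 300 to 600 kb, just under the span limit, averaged -0.058, with 31.0% lower.

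On the HFD, the average was again below that of shorter genes. The mean difference of the 128 genes was -0.035, or -2.38%, and the median -0.038. There were 68 lower, 30 higher and 30 equal genes, which is 53.1% lower and 23.4% higher, beside 34.4% and 46.3% of all 14326 genes. By at least 0.1, 34 (26.6%) were lower, beside 13.9% of all genes, and 12 (9.38%) were higher, beside 18.8%. Matched shorter genes had a mean of 0.0056, a distance of -0.040 from the very long genes, and 12.5% of them were lower by at least 0.1.

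**Figure D1:**
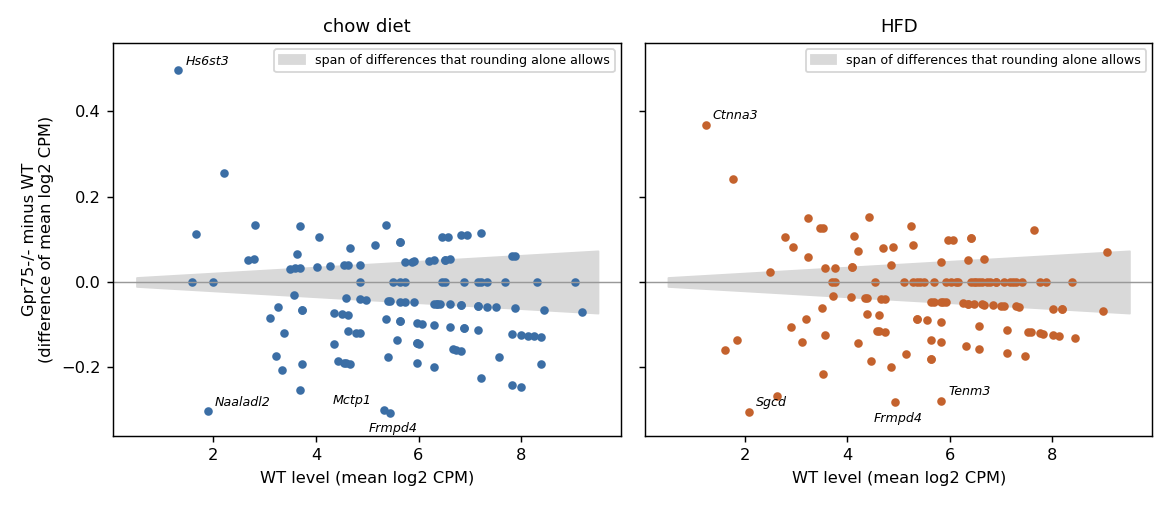
Genotype difference (Gpr75-/- minus WT, difference of mean log2 CPM) of each very long gene against its level in WT mice, on chow and on the HFD, 128 genes each. Most points lie below 0, the 2 genes farthest above WT on each diet have low levels (1.23 to 2.20 in WT), and the grey band is the range that rounding of the group means alone allows.

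The levels of the very long genes covered a wide range. Per kb of mRNA and averaged over the genotypes, Ntm was highest on chow with 81.2 CPM per kb, followed by Dpp6 with 67.6 and Camta1 with 62.4, and the median of the 128 genes was 7.65. Naaladl2 was lowest with 0.357. Ntm encodes neurotrimin, a GPI-anchored adhesion protein of neurons, Dpp6 an auxiliary subunit of A-type potassium channels, and Camta1 a calmodulin-binding transcription activator. With no spread over mice, neighbours in this order cannot be told apart. The tables of the diets were normalised separately, so levels were not compared between them.

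Among the genes with the highest mean counts on chow, Camta1 and Dpp6 were within 0.1 of WT on both diets. Camta1 stood at 9.06 in both genotypes on chow, and at 9.06 and 9.13 on the HFD. Dpp6 was at 8.32 in both genotypes on chow and 8.38 in both on the HFD. Pcdh9, a protocadherin, went from 8.45 in WT to 8.38 in Gpr75-/- mice on chow, and from 8.45 to 8.32 on the HFD, where the difference (-0.13) passed 0.1. Ank3, also among them, is described with the scaffolds below.

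Frmpd4, which binds PSD-95 at excitatory synapses and lies on chromosome X (GRCm39, 166254305-167360227), had the lowest difference on chow among the 128 genes. Its level was 5.45 in WT and 5.15 in Gpr75-/- mice, a difference of -0.31 that rounding places between -0.35 and -0.26, or 0.809 of WT. It was also low on the HFD, with 4.94 and 4.66, a difference of -0.28 or 0.823 of WT. The Gpr75-/- mean was thus lower on both diets by much more than rounding allows.

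Mctp1, a calcium-binding membrane protein of the endoplasmic reticulum, stood at 5.32 in WT and 5.02 in Gpr75-/- mice on chow (-0.30), and at 5.15 and 4.98 on the HFD (-0.17). Nkain2, whose product interacts with the sodium pump, stood at 3.69 and 3.44 on chow (-0.25) and at 3.53 and 3.32 on the HFD (-0.21). Ptprd, a presynaptic receptor phosphatase that organises synapses, stood at 8.0 and 7.75 on chow (-0.25) and at 7.82 and 7.69 on the HFD (-0.12). Celf2, a regulator of splicing, stood at 7.82 and 7.57 on chow (-0.24) and at 7.57 and 7.46 on the HFD (-0.12). With Frmpd4, these were the 5 lowest on chow among very long genes with a mean count of at least 100. Each was lower by at least 0.1 on the HFD as well, where 26.6% of the very long genes and 13.9% of all genes were. Of the 41 very long genes lower by at least 0.1 on chow, 26.8% were so on the HFD.

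By the same rule, the lowest 5 under the HFD included Frmpd4 and Nkain2 again. Tenm3, a teneurin that guides the matching of synaptic partners, was lowest after Frmpd4, with 5.82 in WT and 5.54 in Gpr75-/- mice (-0.28), beside -0.10 on chow. Spag16, a component of the axoneme of motile cilia, stood at 2.63 and 2.36 on the HFD (-0.27) but at 2.20 and 2.46 on chow (0.25), with a mean count of 92.9 there. Sntg1, a syntrophin of the dystrophin complex, stood at 4.86 in WT and 4.66 in Gpr75-/- mice on the HFD (-0.20), and at 4.86 and 4.82 on chow.

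Genes on the higher side differed less at these levels. On chow the 5 highest with a mean count of at least 100 were Pard3b, a polarity protein (2.81 in WT and 2.95 in Gpr75-/- mice, a difference of 0.13), Marchf1, a ubiquitin ligase (5.36 and 5.5, 0.13), Dpyd, which degrades pyrimidines (3.69 and 3.82, 0.13), Ralyl, an RNA-binding protein (7.22 and 7.34, 0.11), and Dpp10, a channel subunit like Dpp6 (6.94 and 7.06, 0.11). Pard3b stood at 2.78 and 2.89 on the HFD. Among the highest under the HFD were Astn2, an astrotactin of migrating neurons (4.43 and 4.58, a difference of 0.15), Sgcz, a sarcoglycan (3.23 and 3.38, 0.15), Cntnap5a, of the contactin-associated proteins (5.23 and 5.36, 0.13), and Sdk1, an adhesion protein of synaptic layers (3.47 and 3.59, 0.13).

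Some of the widest differences were in genes near the filter. Hs6st3, a heparan sulfate sulfotransferase with a mean count of 55.2 on chow, stood at 1.31 in WT and 1.81 in Gpr75-/- mice there (0.50) and at 1.62 and 1.46 on the HFD (-0.16). Ctnna3, a catenin of cadherin junctions, was at 1.58 in both genotypes on chow, and at 1.23 and 1.6 on the HFD (0.37). Naaladl2 stood at 1.89 and 1.58 on chow (-0.30) and at 1.77 and 2.01 on the HFD (0.24), and Sgcd, a sarcoglycan, at 1.99 in both genotypes on chow and at 2.07 and 1.77 on the HFD (-0.30).

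The 4 genes below the filter were 5730522E02Rik, with a mean count of 33.6 on chow and differences of -0.19 and -0.29 on chow and the HFD, Arhgap15 (40.8, with 0.10 and -0.11), Fhit (44.0, with -0.08 and -0.40) and Lrmda, which was listed on the HFD only (31.0, with 0.17).

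The diets, each with its own WT mice, were then set side by side. Of the 128 genes 45 (35.2%) were lower on both diets by any printed step, beside 16.7% of the 14112 genes past the filter on both, and 13 were higher on both, beside 22.1%. Lower by at least 0.1 on both diets were 11 genes (8.59%), beside 4.78% of all genes: Anks1b, Celf2, Cntn5, Dlgap2, Erc2, Frmpd4, Lrrtm4, Mctp1, Nkain2, Ptprd and Rbms3. They are 26.8% of the 41 genes lower on chow and 32.4% of the 34 lower on the HFD. These shares are close to those of all 128 genes, of which 26.6% were lower on the HFD and 32.0% on chow. By the bounds of rounding, Dlgap2, Erc2, Frmpd4, Mctp1 and Nkain2 were lower by at least 0.1 on both diets. The others of the 11 could be under 0.1 on the HFD. Magi1 and Pard3b were the 2 genes higher by at least 0.1 on both, beside 5.2% of all genes. Rounding could place either of them under 0.1 on the HFD as well. Opposite differences of at least 0.1 were seen in 6 genes, Cntnap5a, Hs6st3, Immp2l, Naaladl2, Spag16 and Zbtb20, or 4.69%, beside 5.5% of all genes.

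Of the 11 genes, Anks1b, Dlgap2 and Erc2 are on the list of synaptic scaffold and release proteins, and Lrrtm4 and Ptprd on that of synaptic adhesion molecules. Erc2 is a scaffold of the presynaptic active zone and stood at 6.67 in WT and 6.52 in Gpr75-/- mice on chow (-0.16), and at 6.57 and 6.41 on the HFD (-0.16). Dlgap2, a scaffold of the postsynaptic density, stood at 4.66 and 4.46 on chow (-0.19) and at 4.46 and 4.28 on the HFD (-0.19). Lrrtm4, a postsynaptic ligand of neurexins and heparan sulfate, stood at 4.86 and 4.74 on chow (-0.12) and at 4.74 and 4.62 on the HFD (-0.12). At the printed precision, these 3 genes differed by nearly the same amount on each diet. Rounding is wide beside this: it places Erc2 between -0.211 and -0.105 on chow and between -0.208 and -0.104 on the HFD.

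Cntn5, a contactin of axons, stood at 3.72 in WT and 3.53 in Gpr75-/- mice on chow and at 3.56 and 3.44 on the HFD. Anks1b, a postsynaptic protein that shuttles to the nucleus, stood at 8.25 and 8.13 on chow and at 8.13 and 8.0 on the HFD. Rbms3, an RNA-binding protein, stood at 6.73 and 6.57 on chow and at 6.57 and 6.46 on the HFD. In each the Gpr75-/- mean was the lower one on both diets.

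Across the 128 genes the differences on chow and the HFD had a Pearson correlation of 0.082 and a Spearman correlation of 0.18, against 0.16 and 0.15 over 14112 genes. Genes of a table share libraries and are not independent replicates, so these are descriptions. The difference on the HFD minus that on chow averaged 0.011 (0.0059 to 0.0487 over the settings tried), with an SD over genes of 0.15, beside 0.0080 and 0.17 over all genes. It was below 0 in 55 genes, above 0 in 70 and 0 in 3.

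**Figure D2:**
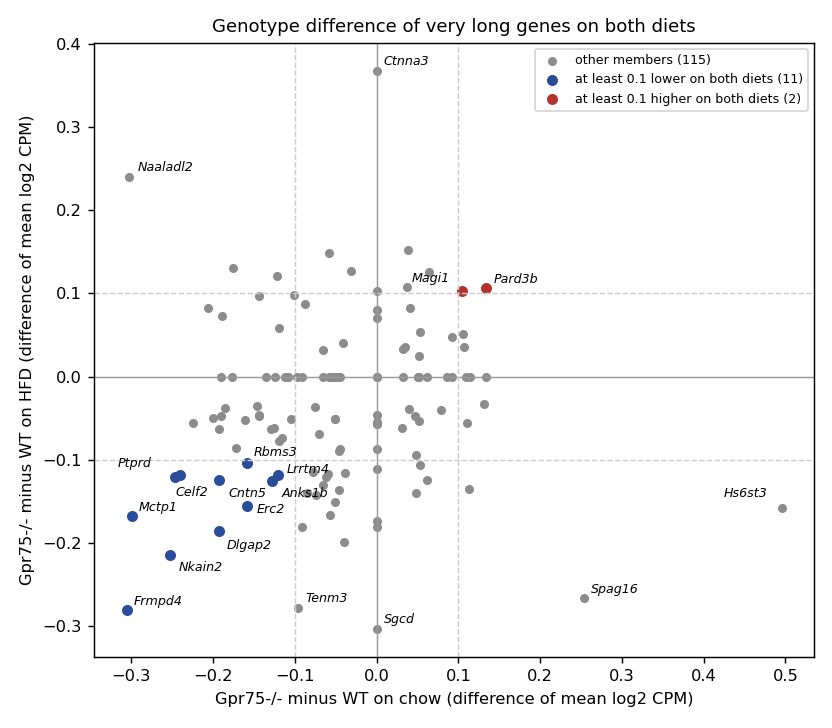
Genotype difference (Gpr75-/- minus WT, difference of mean log2 CPM) of the 128 very long genes on chow (x axis) and on the HFD (y axis), with dashed lines at 0.1 on either side of 0. The 11 genes lower by at least 0.1 on both diets sit at the lower left with Frmpd4 at the corner, and Hs6st3, Spag16 and Naaladl2 lie in the quadrants of opposite sign.

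The genes were grouped by the role of their products. For reading the counts of each list, 32.0% of all very long genes and 18.6% of all genes were lower by at least 0.1 on chow and 9.38% and 19.3% higher, and on the HFD 26.6% and 13.9% were lower and 9.38% and 18.8% higher. Synaptic adhesion molecules, which hold pre- and postsynaptic membranes together and instruct the synapse, were the largest group with 23 genes past the filter. On chow they averaged -0.073: 18 were below WT and 4 above, and 9 (39.1%) were lower by at least 0.1, beside 32.0% of all very long genes, with none higher by that much. The 9 were Adgrl3, Lrrc4c, Lrrtm4, Nrxn3, Pcdh11x, Ptprd, Ptprt, Tenm1 and Tenm4. On the HFD the group averaged -0.013, with 5 (21.7%, beside 26.6% of all very long genes) lower by at least 0.1 (Il1rapl2, Lrrtm4, Pcdh9, Ptprd and Tenm3) and 2 higher (Ctnna3 and Sdk1).

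Nrxn3, the neurexin whose start windows are printed above, stood at 8.38 in WT and 8.19 in Gpr75-/- mice on chow (-0.19), and at 8.19 and 8.13 on the HFD (-0.063). Tenm4, a teneurin, stood at 6.84 and 6.67 on chow (-0.16) and at 6.62 and 6.57 on the HFD (-0.053). Both were thus nearer to WT on the HFD than on chow. Tenm1 and Pcdh11x, on chromosome X, differed by -0.10 and -0.14 on chow and by 0.099 and 0.097 on the HFD. Nlgn1, the neuroligin that binds neurexins, differed by -0.050 and -0.051, within the range that rounding allows.

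Contactins, their associated proteins and the GPI-anchored IgLON proteins, adhesion molecules of axons, numbered 11. They averaged -0.068 on chow, with 4 (36.4%, beside 32.0% of all very long genes) lower by at least 0.1 (Cntn5, Cntnap5a, Lsamp and Ntm) and none higher, and -0.037 on the HFD, with 3 (27.3%, beside 26.6%) lower (Cntn4, Cntn5 and Opcml) and 1 higher (Cntnap5a). Lsamp, the limbic system-associated IgLON, stood at 8.13 in WT and 8.0 in Gpr75-/- mice on chow and at 8.0 and 7.94 on the HFD. Opcml stood at 7.17 and 7.11 on chow and at 7.11 and 6.94 on the HFD (-0.17). Negr1, an IgLON whose human locus is known from body mass association studies, stood at 7.17 and 7.11 on chow and at 7.22 in both genotypes on the HFD. Cntnap2, which anchors potassium channels on axons, was at 6.89 in both genotypes on chow and at 6.84 and 6.78 on the HFD.

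Synaptic scaffold and release proteins were 14. On chow 4 (28.6%, beside 32.0% of all very long genes) were lower by at least 0.1 (Ank3, Anks1b, Dlgap2 and Erc2) and 1 higher (Magi1), with an average of -0.053. On the HFD 6 (42.9%, beside 26.6%) were lower (Anks1b, Dlgap1, Dlgap2, Erc2, Sgcd and Sntg1) and 4 higher, among them Dmd, Magi1 and Sgcz, with an average of -0.056. Ank3, ankyrin-G of the axon initial segment, stood at 8.38 in WT and 8.25 in Gpr75-/- mice on chow and at 8.19 and 8.13 on the HFD. Dlg2, the postsynaptic scaffold PSD-93, was at 7.34 in both genotypes on chow and at 7.34 and 7.28 on the HFD. Dlgap1, which links such scaffolds to Shank proteins, stood at 7.88 and 7.82 on chow and at 7.75 and 7.63 on the HFD. Magi1, a scaffold of cell junctions, was the exception in direction on both diets, with 6.46 and 6.57 on chow and 6.41 and 6.52 on the HFD. Dmd, the dystrophin gene, was at 6.52 in both genotypes on chow and at 6.41 and 6.52 on the HFD.

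RNA-binding proteins and transcription factors, a list of 11 genes that also holds the polarity gene Pard3b, had the lowest average of the functional lists on chow, -0.087, with 6 (54.5%, beside 32.0% of all very long genes) lower by at least 0.1 (Auts2, Celf2, Rbfox1, Rbms3, Zbtb20 and Zfhx3) and 1 higher (Pard3b). On the HFD the average was -0.036, with 4 (36.4%, beside 26.6%) lower (Celf2, Esrrg, Rbms3 and Rora) and 2 higher (Pard3b and Zbtb20). Rbfox1, a splicing regulator of neurons, stood at 7.17 in WT and 7.06 in Gpr75-/- mice on chow and at 7.06 in both on the HFD. Zfhx3, a homeobox protein of the hypothalamic clock region, stood at 7.57 and 7.4 on chow (-0.18) and at 7.17 in both on the HFD. Zbtb20, a zinc finger repressor, differed by -0.12 on chow and 0.12 on the HFD. Rora, a nuclear receptor of the circadian clock, was at 7.69 in both genotypes on chow and at 7.46 and 7.28 on the HFD (-0.17).

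Kinases, phosphatases and enzymes of cyclic nucleotides were 9, with averages of -0.049 and -0.044. On chow 2 (22.2%, beside 32.0% of all very long genes and 18.6% of all genes) were lower by at least 0.1, Dgkb and Prkg1, and none was higher, while on the HFD 3 (33.3%, beside 26.6% and 13.9%) were lower (Kalrn, Mast4 and Pde4d) and 1 higher (Alk). Dgkb, a diacylglycerol kinase of neurons, stood at 7.22 in WT and 7.0 in Gpr75-/- mice on chow (-0.22) and at 7.0 and 6.94 on the HFD. Kalrn, a guanine nucleotide exchange factor of dendritic spines, stood at 6.41 and 6.36 on chow and at 6.31 and 6.16 on the HFD (-0.15). Ptprm was at 6.46 in both genotypes on both diets.

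The smaller lists were mixed. Among 3 axon guidance receptors, Dcc, which binds netrin, stood at 4.54 in WT and 4.35 in Gpr75-/- mice on chow (-0.19) and at 4.21 and 4.28 on the HFD, while Robo1, which binds Slit proteins, differed by 0.048 and -0.094 and Epha6, an ephrin receptor, by -0.074 and -0.14. Of 3 cadherins, Cdh12 differed by -0.12 and -0.074, Cdh13 by -0.053 on chow with equal means on the HFD, and Cdh18 by 0.032 on chow with equal means on the HFD. The list of CUB and sushi or LDL receptor-like genes, 4 with the astrotactin Astn2, averaged -0.037 and 0.016, with Csmd1 at -0.046 and -0.090, Csmd3 at -0.044 on chow and equal means on the HFD, Lrp1b at -0.097 on chow and equal means on the HFD, and Astn2 at 0.039 and 0.15. The list of trophic factors held 2 genes, Nrg3, a neuregulin (equal on chow, -0.088 on the HFD), and Fgf14, which belongs to the FGF family by sequence but acts inside the cell on sodium channels (0.093 on chow, equal on the HFD).

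Genes at common fragile sites averaged near 0. Of 21 such genes 20 passed the filter, and they averaged -0.013 on chow, with 4 lower by at least 0.1 and 3 higher, and 0.022 on the HFD, with 2 lower and 5 higher. On chow 20% were thus lower and 15% higher, beside 18.6% and 19.3% of all genes, and on the HFD 10% and 25%, beside 13.9% and 18.8%. Several are also in the lists above. Macrod2, an ADP-ribose hydrolase, stood at 5.96 in WT and 5.82 in Gpr75-/- mice on chow (-0.14) and at 5.87 and 5.82 on the HFD. Wwox, an oxidoreductase, was at 4.86 in both genotypes on chow and at 4.70 and 4.78 on the HFD. Immp2l, a mitochondrial protease subunit, differed by 0.11 on chow and by -0.13 on the HFD.

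Long genes enriched in glia were 7, and averaged -0.066 on chow and -0.024 on the HFD, with 2 (28.6%, beside 32.0% of all very long genes) lower by at least 0.1 on chow (Nkain2 and Tmem132d) and 1 higher (Trpm3), and 1 lower on the HFD (Nkain2). Gpc5, a glypican of astrocytes, stood at 5.73 in WT and 5.77 in Gpr75-/- mice on chow and at 5.92 and 5.87 on the HFD. Npas3, a transcription factor, differed by -0.045 and -0.088. The oligodendrocyte markers differed more than any of these lists: all 10, among them Mbp and Mog, were below WT on both diets, with Mog differing by -0.21 and -0.32. The 5 astrocyte markers averaged 0.056 and 0.040. Whether cell composition takes part in the differences of the very long genes was not tested.

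The 37 genes on no list averaged -0.013 on chow, with 10 (27.0%) lower by at least 0.1 and 7 (18.9%) higher, beside 18.6% and 19.3% of all genes, and -0.049 on the HFD, with 10 (27.0%, beside 13.9% of all genes) lower and none higher. The 7 genes on chromosome X averaged -0.095 on chow, with 4 (57.1%, beside 32.0% of all very long genes and 18.6% of all genes) lower by at least 0.1 (Diaph2, Frmpd4, Pcdh11x and Tenm1), and -0.028 on the HFD, with 2 (28.6%, beside 26.6% and 13.9%) lower and 1 higher.

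**Figure D3:**
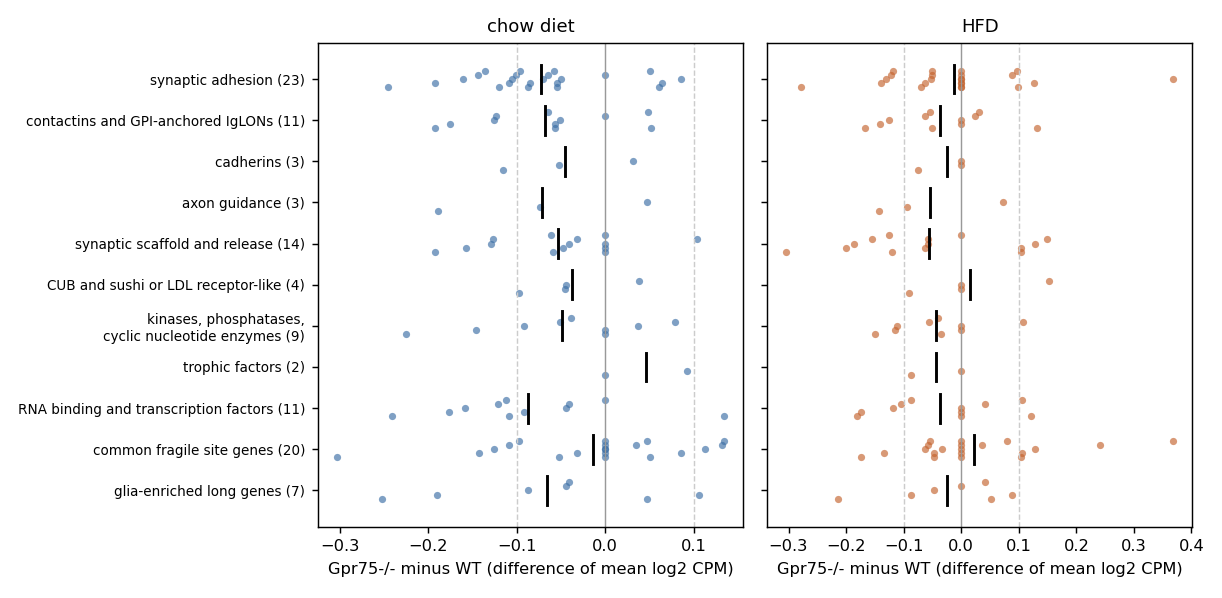
Genotype difference (Gpr75-/- minus WT, difference of mean log2 CPM) of each very long gene by functional list, on chow and on the HFD; a point is a gene, a black bar the mean of the list, and the number of genes stands beside the name. Most list means lie below 0 on both diets, and those of the fragile site genes lie near 0.

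The threshold of 600 kb did not mark a step. Over all protein-coding genes past the filter, the mean difference on chow was 0.0042 below 10 kb of span, 0.014 from 10 to 30 kb, 0.0048 from 30 to 100 kb, -0.024 from 100 to 200 kb, -0.037 from 200 to 300 kb and -0.058 from 300 to 600 kb. It was -0.027 in the 75 genes from 600 kb to 1 Mb and -0.072 in the 53 genes of at least 1 Mb. Averages below 0 thus began near 100 kb on chow, in genes that the rule leaves out. On the HFD the means were 0.038, 0.017, -0.0060, -0.020, -0.033 and -0.029 in the same classes up to 600 kb, then -0.043 and -0.023, so the longest class was not the lowest there.

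The share of genes lower by at least 0.1 followed the span in a like way on chow, from 16% below 10 kb to 31.0% at 300 to 600 kb, 28.0% at 600 kb to 1 Mb and 37.7% above. On the HFD it went from 9.35% to 23.6%, 30.7% and 20.8%. Genes higher by at least 0.1 went the other way on the HFD, from 24.5% below 10 kb to 6.67% at 600 kb to 1 Mb and 13.2% above.

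**Figure D4:**
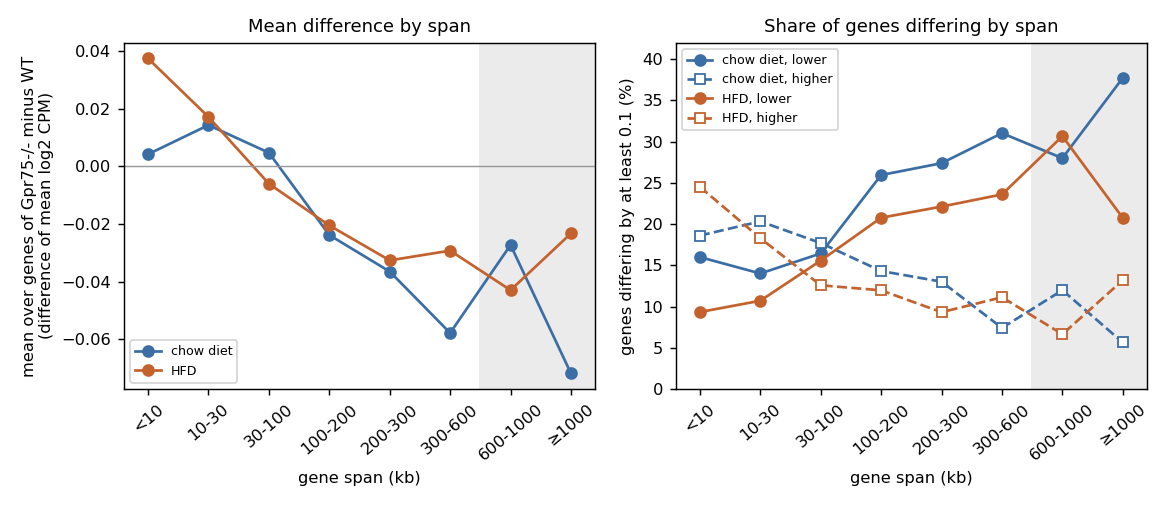
Mean genotype difference (left, Gpr75-/- minus WT, difference of mean log2 CPM) and share of genes lower or higher by at least 0.1 (right, percent) in classes of gene span in kb, for chow and the HFD, with the classes of very long genes shaded. Means pass below 0 in the class of 100 to 200 kb on chow and of 30 to 100 kb on the HFD, and are lowest on chow in the 53 genes of at least 1 Mb (-0.072).

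Genes just inside the limit were Mast4 at 602.0 kb (equal means on chow and -0.11 on the HFD), Kalrn at 604 kb (-0.051 and -0.15) and Esrrg, an orphan nuclear receptor, at 606 kb (-0.091 and -0.18). Just outside lay Foxp1, a forkhead transcription factor, at 597 kb (-0.25 and -0.097), Lpp at 599 kb (-0.080 and 0.16) and Sorcs3, a sorting receptor, at 599 kb (equal on chow and -0.095 on the HFD). At the far end, Fgfr2 stood at 6.31 in WT and 6.11 in Gpr75-/- mice on chow (-0.20) and at 6.26 and 6.21 on the HFD, followed in span by Ptprd and by Dmd, at 2271 and 2257 kb.

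Span and mRNA length go together, and the differences also moved with the length of the mRNA. On chow the 63 very long genes with an mRNA under 6 kb averaged -0.0096, with 13 (20.6%) lower by at least 0.1, and the 65 with a longer one averaged -0.081, with 28 (43.1%) lower. Shorter protein-coding genes showed a like contrast, with 0.011 over 10678 genes, 14.4% of them lower by at least 0.1, and -0.053 over 1895, with 33.4% lower. On the HFD the very long genes averaged -0.035 in both classes, while shorter genes averaged 0.015 and -0.031.

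Matched on mean count and mRNA length together, shorter genes averaged -0.0095 on the HFD, with 16.9% lower by at least 0.1, and the distance of the very long genes from them was -0.025, where it had been -0.040 with the mean count alone; the values for chow are given above. Matched on mean count and GC content the distance was -0.051 on chow and -0.026 on the HFD.

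**Figure D5:**
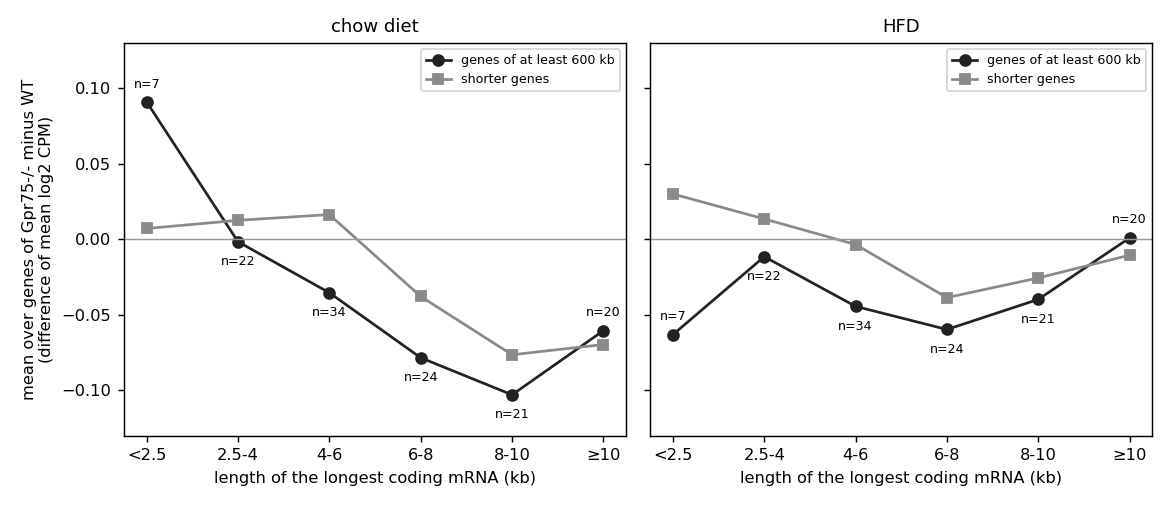
Mean genotype difference (Gpr75-/- minus WT, difference of mean log2 CPM) in classes of mRNA length in kb, for the very long genes (black, number of genes at each point) and shorter protein-coding genes (grey), on chow and on the HFD. On chow both lines are lowest in the class of 8 to 10 kb, where they stand at -0.10 and -0.076, and the first black point rests on 7 genes that include Hs6st3.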

How the data were processed

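RNA was measured in 12 hypothalami, 3 in each group, from total RNA by TRIzol and column extraction and SMART-Seq mRNA libraries. Per the study's methods and the submitters' processing notes, reads went through the Astrocyte workflow, and the notes name STAR, featureCounts, StringTie, DESeq2 and GRCm39, with no roles. Samples were grouped by their titles.

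The authors deposited a table per diet, with a mean count, the mean of each group and the columns of their own comparison for each gene. Its signal column, as the authors made it, holds the normalised count of a gene averaged over 6 mice. The sources used here do not state the scale of the deposited group means. As deposited, they were read as log2 values, the log2 of 1 plus the mean log2 CPM, printed with 2 decimals, because values converted in this way matched log2 of the mean normalised count up to a constant within 0.1 for 99.7% of genes past the filter on both diets. The deposited fold changes, standard errors and p-values of the authors' own comparison were not used.

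Levels here are 2 to the printed value, minus 1, and a difference is Gpr75-/- minus WT, with the bounds that rounding allows. Genes needed a mean count of at least 50 on that diet, except in the marker lists and where genes below the filter are named. Differences were averaged over genes and set beside shorter protein-coding genes in 10 classes of mean count (Python 3.11.15, pandas 2.3.3), and the steps were tested on simulated data. A count test on single mice had been planned and could not be used on group means. No column of per-sample values was left unmapped. The depth of single libraries is not given in these tables. All 132 genes matched GENCODE M21 and RefSeq by gene ID or symbol; mRNA lengths come from GENCODE M21, start windows and gene lengths from RefSeq, both on GRCm38, and only spans and positions of genes are in GRCm39.

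Members, lists, the filter and the 0.1 limit were chosen with earlier results of these data known. Named genes are the 10 with the highest mean count on chow, the 5 farthest above and below WT on each diet with a mean count of at least 100, up to 4 of each list by mean count, the 3 longest, the 3 on each side of the span limit, and Gpr75; any other gene was picked for naming with its values in view, and some genes that the rule names are not reported here. Alternatives changed the filter, the span limit, the genes left out, the matching and the scale.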

Additional observations from a re-analysis of the deposited data

How the results depend on the processing

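Over 73 values under alternative settings, 69 moved by less than a tolerance, none changed direction, and 4 moved further. The tolerance was the rounding of a single gene's group mean (0.023), or a 95% exact binomial interval for shares. The 4 that moved further were as follows. With the span limit at 1 Mb, which leaves 53 genes, the mean difference on chow was -0.0719, the distance from matched shorter genes on chow -0.0730, and the HFD minus chow difference 0.0487 (0.0059 to 0.0487 over all settings). Matching on mean count and mRNA length, chosen after seeing the data, gave a distance on chow of -0.0207. The cause of these shifts was not tested. The tolerance is wide beside the main means (chow -0.046, HFD -0.035), so a value counted as unmoved can still have shifted considerably. For example, adding mRNA length to the matching took the HFD distance from -0.0404 to -0.0253, within the tolerance. The binomial interval also treats genes as independent, which they are not. The count of 69 is therefore no measure of stability. Over all settings the mean ranged from -0.0719 to -0.0453 on chow and from -0.0385 to -0.0233 on the HFD, and the distance from shorter genes from -0.0730 to -0.0207 and from -0.0447 to -0.0253. These settings were a mean count of at least 100, no filter, spans of at least 400 kb or 1 Mb, the families put back, 20 classes, no matching, all genes in place of shorter ones, a pseudocount of 1 and, all chosen after seeing the data, matching on mRNA length or GC and leaving out genes under 600 kb in RefSeq.

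No paired analysis was possible because the values used are means of each group, which carry no replicate number. For the same reason DESeq2 size factors, the DESeq2 test and leaving out each mouse were not run. Differences under about 0.05 in a gene are within the rounding of the group means, and the spread between mice limits every value given here to a description.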
